A study of Rattus norvegicus with 6 samples.

Results

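Chromosome 13 of the rat was examined in a list of accessible chromatin regions from the kidneys of Dahl salt-sensitive rats. Every region of the list that lies on chromosome 13 in the rn6 build was taken, which gave 5547 of 151302 regions. The regions were taken by the chromosome name alone, with no measured value used. The chromosome itself was chosen with earlier results of these data known. These regions made up 3.73% of the 148701 regions on the 20 autosomes, while the chromosome made up 4.31% of the autosomal span, measured from the first to the last region of each chromosome. The running numbers of the 5547 regions had no gap in them, so no line of the list was missing on chromosome 13.

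The list came from ATAC-seq, in which a transposase inserts sequencing adapters into DNA that is not wrapped in nucleosomes, so that a listed region marks an open stretch such as a promoter or an enhancer. The series has 6 kidney libraries of SS/Jr rats, all on the Dahl S background, with no label giving the age or sex of any library. In the butanediol group 3 libraries came from rats given 1,3-butanediol in water at 20%, a precursor of the ketone body β-hydroxybutyrate, and the series, which used rats of both sexes, describes 6 weeks of supplementation. The other 3 libraries came from rats labelled with no treatment. The name of the merged list carries the prefixes of both groups' library names, but no line says which libraries entered it. It is taken here, as an assumption, to stand for all 6. It holds positions only, with no count, score or note of the library a region came from. Sequencing depth is therefore unknown, and the treated and untreated kidneys were not compared here. No error between animals can be given, and the spread beside each value is that between chromosomes or windows, which are not replicates.

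Salt sensitivity in this strain means that blood pressure climbs and the kidney is injured when dietary salt is high. Chromosome 13 has long been studied in this setting because replacing it with that of the Brown Norway strain lowers the pressure response to salt. The kidney sets blood pressure over the long term through the amount of sodium its tubules reabsorb and through the tone of its vessels.

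The gene table used for names is of the GRCr8 assembly, and the regions are in rn6, so no gene was placed on the list and no distance from a region to a gene is given. In that table chromosome 13 carries 1460 genes, of which 660 are protein-coding. The 18 listed genes with a bearing on blood pressure or the vessel wall were chosen for this chromosome, and all 18 were found on it in the table. Counted along the 660 protein-coding genes, they include Atp2b4, a plasma membrane calcium pump, at number 152 and Adora1, an adenosine receptor, at number 160. Rgs2, a regulator of G protein signalling, is number 233 and Ptgs2, the inducible cyclooxygenase, is number 241. Further along stand Atp1b1, a subunit of the sodium pump, at number 363, Kcnj10, a potassium channel of the distal nephron, at number 469, and Tgfb2, a transforming growth factor, at number 605. These numbers give gene order only.

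Accessible regions were sparse on chromosome 13 when counted over its whole length. The chromosome held 49.2 regions per Mb over a span of 112.7 Mb, from position 1356838 to 114022035. The other 19 autosomes averaged 59.1 ± 10.6 regions per Mb (SD, 19 autosomes) and ranged from 44.3 on chromosome 2 to 85.0 on chromosome 10. Chromosome 13 was therefore 0.834 times their mean, less than 1 SD below it, and ranked 17 of 20 from the highest. Chromosomes 11, 15 and 2 were sparser. Regions covered 2.71 Mb, or 2.41% of the span, against 2.94 ± 0.584% on the other autosomes (SD, 19 autosomes).

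Chromosomes of nearly the same span give a closer comparison. Chromosome 10, with a span of 112.5 Mb, held 9561 regions, or 85.0 per Mb. Chromosome 15, with 111.2 Mb, held 5368 regions, or 48.3 per Mb. Chromosome 14, with 115.0 Mb, held 5782 regions, or 50.3 per Mb. Chromosome 13 thus lay between chromosomes 15 and 14 in density and far below chromosome 10.

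Set against the number of genes, the same regions ranked differently. Chromosome 13 had 8.40 regions for each protein-coding gene that the GRCr8 table puts on it, while the other autosomes averaged 6.98 ± 1.26 (SD, 19 autosomes). It ranked 5 of 20 from the highest, with chromosomes 6, 18, 2 and 17 above it and chromosome 14 next below at 8.37. The value was lowest on chromosome 19, at 5.15, and was 5.35 on chromosome 10. Protein-coding genes numbered 5.86 per Mb of span on chromosome 13, rank 2 of 20 from the lowest and nearly tied with chromosome 6, also at 5.86. The other autosomes averaged 8.90 ± 2.99 (SD, 19 autosomes). These values set gene numbers of one assembly beside regions and spans of another and use no gene position.

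The low density was unevenly placed along the chromosome. Counted in 1-Mb windows, with each region assigned by its midpoint, the 112 whole windows held 49.5 ± 44.2 regions (SD over windows). Their median was 39 (interquartile range 7 to 87), against a median of 50 over all 2587 autosomal windows. The upper part of this range was ordinary, since the upper quartile of the other autosomes averaged 89.2 ± 14.6 (SD, 19 autosomes). The lower quartile of 7 was the lowest of the 20 autosomes, where the others ran from 9 on chromosome 2 to 47.5 on chromosome 10. Windows with at most 10 regions made up 31.3% of chromosome 13, or 35 of 112 (95% Wilson interval 23.4 to 40.3%), the highest share of the 20. On the other autosomes the share averaged 16.6 ± 5.97% and reached 26.4% on chromosome 2. The values of 4 other autosomes lie inside the interval of chromosome 13. Adjacent windows are not independent, so this interval is likely too narrow. With a bound of 20 regions in place of 10, the share was 37.5% and ranked 2 of 20, below another autosome at 38.2%.

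**Figure D1:**
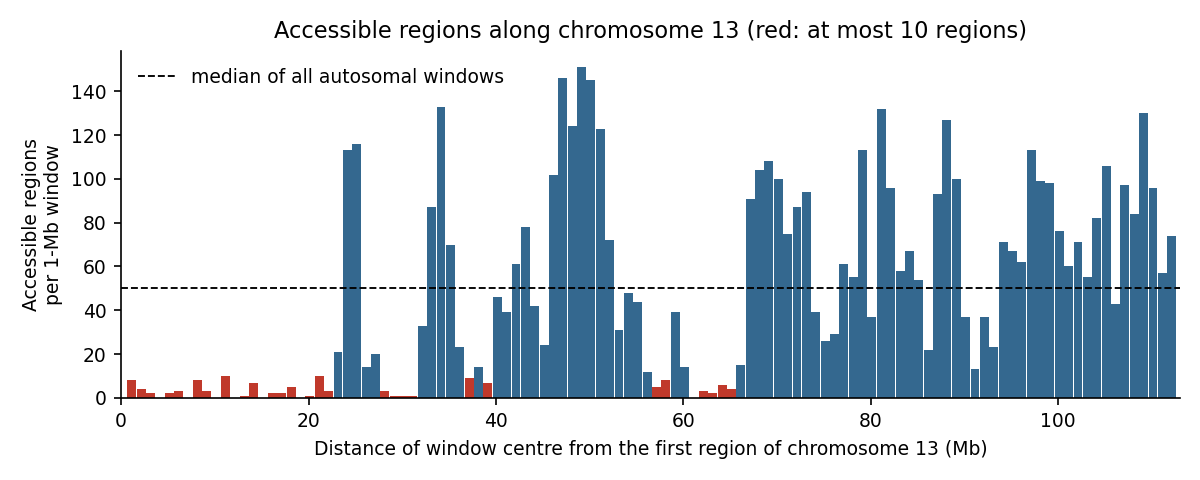
Number of accessible regions in each whole 1-Mb window of chromosome 13, plotted by the distance of the window's centre from the first region in Mb, with windows of at most 10 regions in red and the autosomal median of 50 as a dashed line. The first 22 windows are red or empty, and the fullest window, with 151 regions, stands near 49.1 Mb from the first region.

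Most of the sparse windows, 22 of 35, lay in 1 stretch at the start of the chromosome. The 22 windows from chr13:2000001 to 24000000 each held at most 10 regions and together held 71, or 3.23 ± 3.34 per window (SD, 22 windows). They took up 19.5% of the span and held 1.28% of the regions. In 6 of these windows no region was listed, namely those starting at 5000001, 8000001, 11000001, 13000001, 16000001 and 20000001. The listing itself began late, with a first region at chr13:1356838-1357075, whereas the first region of every other autosome started between positions 1021 and 446783.

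No other autosome had so long a sparse run. The next longest run of windows with at most 10 regions was 12 windows on chromosome 2, from 64000001 to 76000000, and the mean of the other 19 was 5.05 ± 2.48 windows (SD, 19 autosomes). Runs of 22 consecutive windows, a length taken from the run on chromosome 13 itself, could be laid in 2076 overlapping positions on the other autosomes. None held as few as 71 regions. The lowest, on chromosome 15, held 273, which was 3.85 times as many. The first 22 whole windows of the other autosomes held 1262 ± 508 regions (SD, 19 autosomes), from 337 on chromosome 11 to 2332 on chromosome 20. The length of the run depends on the bound chosen for a sparse window. With at most 5 regions it fell to 6 windows, and the longest such run elsewhere was 10 windows, while with at most 20 regions it stayed at 22 windows against at most 12 elsewhere.

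Beyond the first 25 Mb the chromosome was no longer sparse. It held 5451 regions there, or 61.2 per Mb, which was 1.04 times the mean density of the other autosomes taken whole, and 6 of the 19 were denser. When the first 25 Mb was left out of every autosome the ratio was likewise 1.04, and chromosome 13 ranked 6 of 20 from the highest. When each autosome was taken without its own longest run of sparse windows, the ratio was 0.982 and the rank 9 of 20. Both settings were chosen after the stretch had been seen. Whether reads could be placed in the first 25 Mb as well as elsewhere was not tested.

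**Figure D2:**
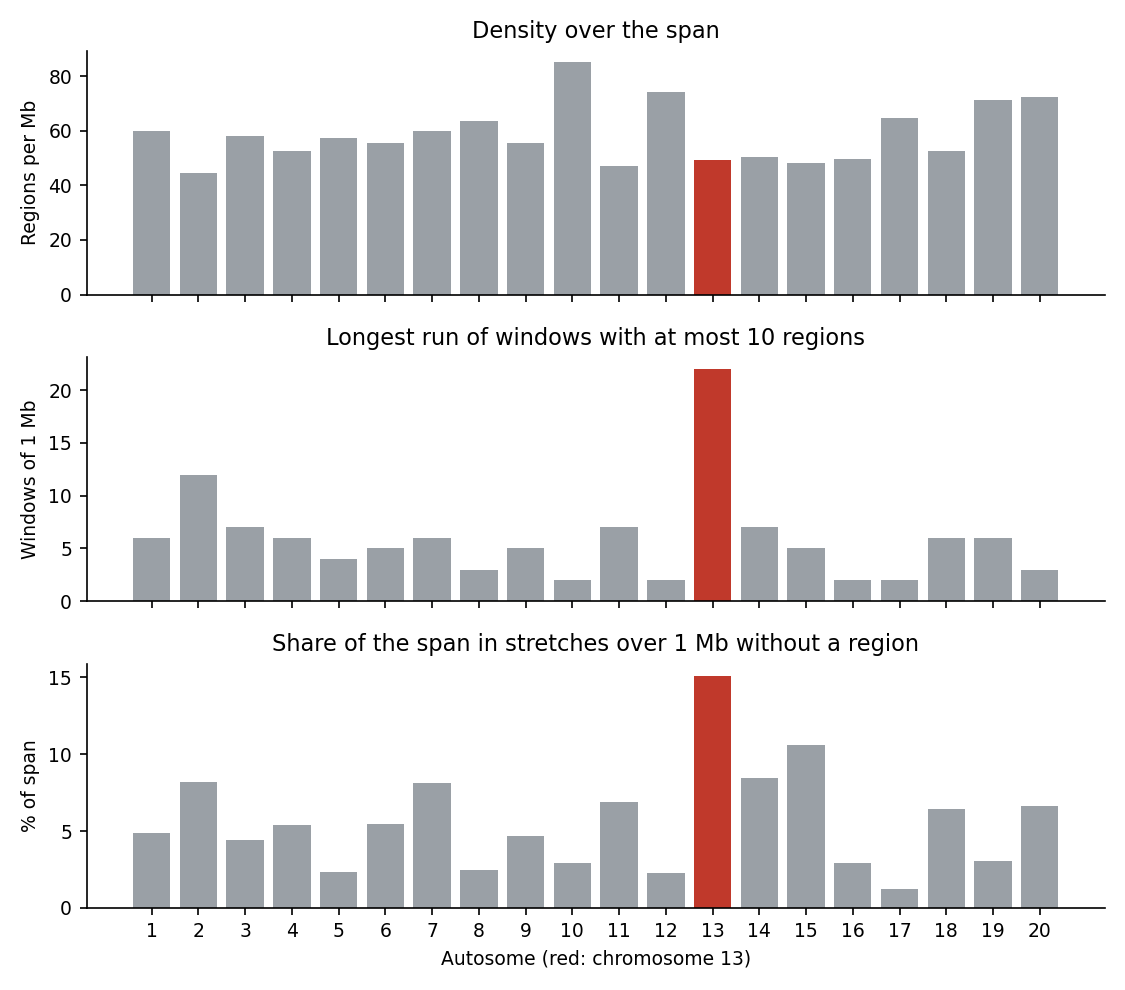
Density of accessible regions per Mb (top), the longest run of 1-Mb windows with at most 10 regions (middle) and the share of the span in stretches over 1 Mb without a region (bottom), 1 bar per autosome with chromosome 13 in red. Chromosome 13 is unremarkable in density at 49.2 per Mb and has the tallest bar in the other 2 panels, at 22 windows and 15.1%.

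The few regions of the first 25 Mb were narrower than those beyond, and their nearest neighbours lay farther off. Their median width was 320 bp (interquartile range 240 to 491 bp, 96 regions), against 400 bp for the 5451 regions beyond (287 to 601 bp). Only 1 of the 96 reached 1 kb, namely chr13:1947678-1948851 with 1174 bp, a share of 1.04% (95% Wilson interval 0.184 to 5.67%) against 6.97% beyond (6.33 to 7.68%). The distance to the nearest region had a median of 12.6 kb in the first 25 Mb and 2.56 kb beyond it.

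Regions in sparse windows of other autosomes were narrow as well. Over the 19 other autosomes, 1859 regions lay in windows with at most 10 regions. Their median width was 341 bp and 3.87% reached 1 kb (95% Wilson interval 3.09 to 4.85%). None of the 71 regions in the sparse run of chromosome 13 reached 1 kb. The 95% Wilson interval for 0 out of 71 reaches up to 5.13%, so a difference from 3.87% was not detectable. The median width of the 71 was 294 bp. The nearest other region lay a median of 11.8 kb from them, and 30.7 kb from the 1859 regions in sparse windows elsewhere. The medians of single autosomes ran from 3.86 to 49.3 kb, so 11.8 kb lies within their range. These intervals cover counting error only, and neighbouring regions are not independent.

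Empty stretches followed the same layout. Between neighbouring regions of chromosome 13 there were 11 stretches longer than 1 Mb without a region, out of 106 on all autosomes, and only chromosome 2 had more, with 16 over a span of 266.3 Mb. They added up to 17.0 Mb, or 15.1% of the span. The other autosomes averaged 5.12 ± 2.59% (SD, 19 autosomes), and the highest was chromosome 15 with 10.6%. Of the 11 stretches, 8 lay within the first 25 Mb.

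The longest was chr13:12784232-14962911, at 2.18 Mb. It was followed by chr13:10119129-12003050 at 1.88 Mb, chr13:19819350-21677878 at 1.86 Mb and chr13:15699076-17520511 at 1.82 Mb. All 4 lay in the sparse run at the start. The fifth, chr13:61762021-63528417 at 1.77 Mb, lay in the middle of the chromosome. The single longest stretch was not extreme among autosomes, where the longest ranged from 1.12 Mb on chromosome 17 to 5.67 Mb on chromosome 7. Without the first 25 Mb of every autosome chromosome 13 had 3 such stretches, or 4.80% of its span, against a mean of 4.81% on the others.

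Away from the start, sparse and crowded windows alternated in blocks several megabases long. An isolated crowded pair of windows at chr13:25000001-27000000 held 229 regions, 113 and 116 per window, and was separated from the sparse run by a single window. It was followed by a trough at chr13:27000001-34000000 with 73 regions in 7 windows. Within that trough lay the most isolated region of the chromosome, chr13:31092119-31092444, which had no neighbour for 1.07 Mb before it and 1.44 Mb after it. A second crowded block at chr13:34000001-37000000 held 290 regions in 3 windows, with 133 in the window from 35000001. Then 6 windows at chr13:37000001-43000000 held 138 regions, all below the autosomal median.

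The most crowded block of chromosome 13 ran from chr13:47000001 to 54000000. Its 7 windows held 863 regions, 123 ± 28.4 per window (SD, 7 windows), which was 15.6% of all regions of the chromosome. The fullest window of chromosome 13, chr13:50000001-51000000, lay in it with 151 regions covering 7.98% of the window. Windows 48000001-49000000 and 51000001-52000000 followed with 146 and 145 regions. The remaining 2 of the 5 fullest were 35000001-36000000 with 133 and 82000001-83000000 with 132. The fullest window of chromosome 13 was far above the autosomal median of 50, but it was not the fullest autosomal window. Of the 2587 whole autosomal windows, 64 held more regions than it did. The other windows named here were not ranked among all autosomal windows.

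Next came a longer depleted part. The 14 windows at chr13:54000001-68000000 all lay below the autosomal median and held 231 regions, 16.5 ± 16.7 per window (SD, 14 windows). Inside it, 5 windows at chr13:62000001-67000000 held 15 regions in all, and the window from 62000001 held none. From 68000001 on the chromosome was mostly well filled. The 7 windows at chr13:68000001-75000000 held 659 regions, 94.1 ± 11.2 per window (SD, 7 windows). The longest run of windows above the autosomal median was the 12 windows at chr13:95000001-107000000, with 960 regions, 80.0 ± 19.4 per window (SD, 12 windows). The list ended with chr13:114021514-114022035, 522 bp wide.

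Cut into 10 equal parts of its span, chromosome 13 held 0.757% of its regions in the first part and 0.595% in the second. Both were the lowest shares of the 20 autosomes, where the others averaged 9.75 ± 4.31% and 9.95 ± 3.93% (SD, 19 autosomes). The fifth part held 18.3%, more than any other autosome at the same place (at most 14.7%), and the sixth held 3.30%, less than any other (at least 4.49%). The seventh held 14.6%, also the highest of the 20 (at most 13.9% elsewhere). Each is a share of the chromosome's own total, so the near-empty first and second parts raise the shares of the later ones. The first 25% of the span held 6.51% of the regions, again the lowest of the 20, next to 8.15% on chromosome 11. The point by which 50% of the regions had been passed lay at 65.2% of the span, while the other autosomes averaged 54.0 ± 9.02% and reached 71.9% on chromosome 5.

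**Figure D3:**
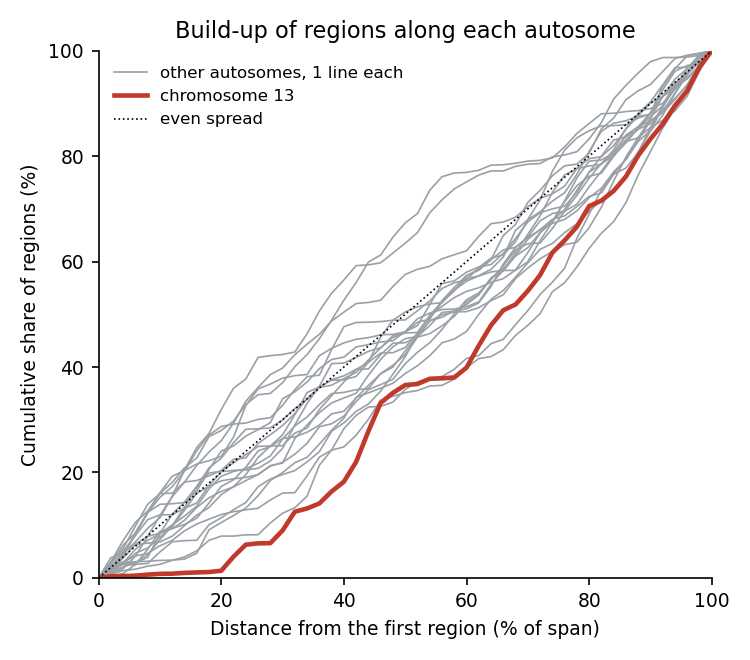
Cumulative share of accessible regions (%) against the distance from the first region as a share of each chromosome's span (%), with chromosome 13 in red, each other autosome as a grey line and an even spread as a dotted line. The red line stays near 0 over the first 20% of the span, rises steeply between 40% and 50%, where 18.3% of the regions lie, and is nearly flat between 50% and 60%, where 3.30% lie.

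This blockwise layout also showed in how alike adjacent windows were. Across the 111 pairs of adjacent windows of chromosome 13, the counts had a correlation of 0.72, the highest of the 20 autosomes, where the others ranged from 0.33 to 0.67. Without the first 25 Mb of every autosome the correlation was 0.64 and ranked 3 of 20. The first place also depended on the windows. It became rank 2 of 20 with windows moved by 500 kb (0.66), with 500-kb windows (0.69) and with 2-Mb windows (0.64). Adjacent windows share their libraries and their stretch of the genome, and these correlations are a description. The variance of the window counts was 39.6 times their mean, below chromosomes 20, 7 and 5 alone, against 33.2 ± 5.02 on the other autosomes (SD, 19 autosomes). It fell to 29.2 without the first 25 Mb of every autosome, and the others then averaged 31.7.

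The regions of chromosome 13 had an ordinary typical width and few members at the wide end. Their median width was 399 bp (interquartile range 286 to 599 bp), equal to the mean of the medians of the other autosomes, 399 ± 7.54 bp (SD, 19 autosomes). Regions of 1 kb or more numbered 381, or 6.87% (95% Wilson interval 6.23 to 7.56%), the lowest share of the 20. The other autosomes averaged 7.79 ± 0.675% (SD, 19 autosomes). Of these, 9 lay inside the interval, among them the next lowest, 6.91% on chromosome 9, so the last place is not settled by these counts. Between 1000 and 1499 bp chromosome 13 had 5.91% of its regions against a mean of 6.46% elsewhere, and between 1500 and 1999 bp it had 0.865% against 1.18%, lower than any other autosome (at least 0.913%). The latter share rests on 48 regions, and its 95% Wilson interval of 0.653 to 1.15% holds the values of 8 other autosomes. At 2 kb or more it had 0.0901% against 0.152%, within the range of the others.

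At the narrow end, 298 regions measured exactly 200 bp, the smallest width in the list. That was 5.37% of the chromosome (95% Wilson interval 4.81 to 6.00%), the highest share of the 20, while the others ranged from 3.86% on chromosome 10 to 5.24% on chromosome 17. Of these, 6 lie inside the interval, the highest included.

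**Figure D4:**
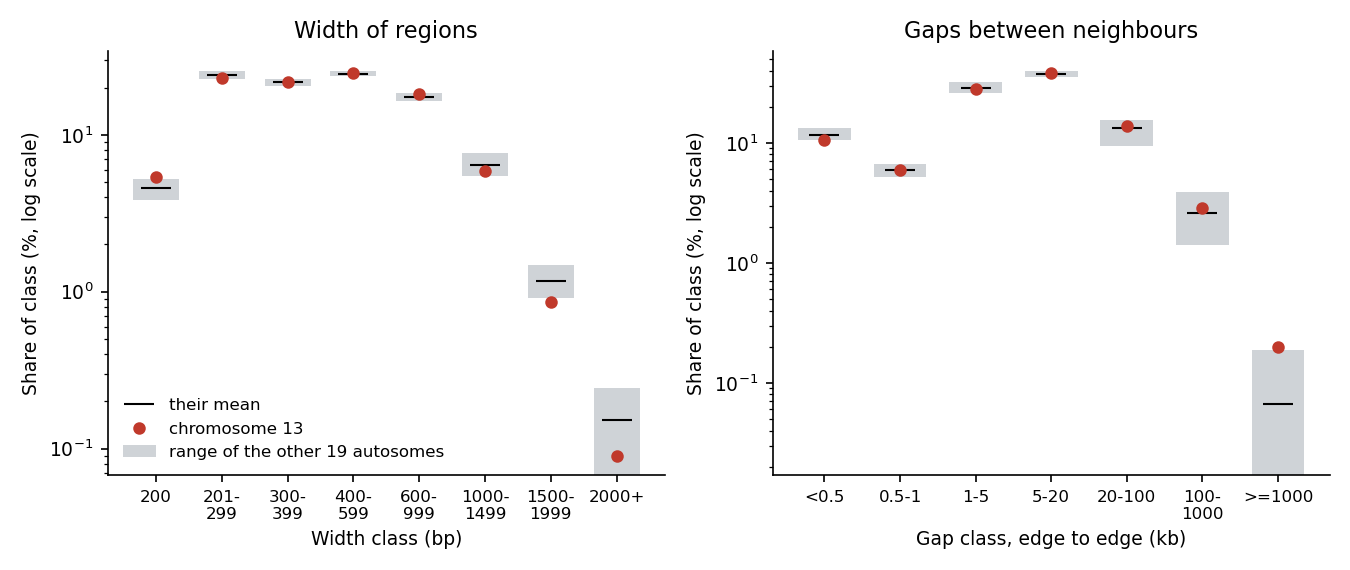
Share of regions by width class in bp (left) and share of gaps between neighbouring regions by gap class in kb (right), both on a log scale, with chromosome 13 as red points, the range of the other 19 autosomes as grey bars and their mean as a black dash. Chromosome 13 lies inside the range in most classes. It is above it at exactly 200 bp (5.37%) and for gaps of 1 Mb or more (0.198%), and below it at 1500 to 1999 bp (0.865%) and for gaps under 500 bp (10.6%). In each of these 4 classes the nearest value of the other autosomes lies inside its 95% Wilson interval.

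The widest region of chromosome 13 was chr13:98615110-98617493, with 2384 bp. Its window held 113 regions, and its neighbours lay 5734 bp before and 11583 bp after it. Next came chr13:83679380-83681534 with 2155 bp, chr13:72742627-72744720 with 2094 bp, chr13:26171519-26173586 with 2068 bp and chr13:106064859-106066894 with 2036 bp. These were the only 5 regions of 2 kb or more. The other autosomes had 11.7 ± 8.25 such regions (SD, 19 autosomes), with 4 each on chromosomes 18 and 20 and 41 on chromosome 1.

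The 10 widest were completed by chr13:49130616-49132608 (1993 bp), chr13:110077353-110079333 (1981 bp), chr13:25965874-25967837 (1964 bp), chr13:83847657-83849583 (1927 bp) and chr13:83383390-83385306 (1917 bp). They were not spread evenly. The window from 83000001 to 84000000 held 3 of the 10, and the crowded pair of windows at chr13:25000001-27000000 held 2. The windows of the 10 held from 75 to 130 regions. Of all 5547 regions of the chromosome, 2348 lay in windows of 50 to 99 regions and 2286 in windows of 100 or more. The nearest neighbour of 2 of the 10 was close, at 120 bp for the region at 83679380 and 126 bp for that at 106064859.

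Regions of 1 kb or more followed the blocks. They occurred in 70 of the 112 whole windows, and neighbouring ones lay a median of 76.7 kb apart, against 73.1 ± 14.3 kb on the other autosomes (SD, 19 autosomes). After chr13:1947678-1948851 the next one came 23.1 Mb later, with none between 1948852 and 25035133. On the other autosomes the longest such distance ranged from 3.36 to 13.1 Mb. The most in any window was 20, in chr13:89000001-90000000, which held 127 regions. Together with the following window this pair had 28 wide regions among 227, or 12.3% (95% Wilson interval 8.67 to 17.2%), above the 6.87% of the chromosome. This pair was picked after its values were seen.

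Median width rose with the number of regions in the surroundings. On chromosome 13 the median width was 364.5 bp in windows of 1 to 49 regions, 400 bp in windows of 50 to 99 and 409 bp in windows of 100 or more. The other autosomes had nearly the same steps, with 372 ± 9.89, 398 ± 6.84 and 411 ± 8.16 bp (SD, 19 autosomes). The share of wide regions on chromosome 13 was similar in windows of 50 to 99 and of 100 or more. It was 5.08% (95% Wilson interval 3.83 to 6.71%) in windows of 1 to 49 regions, 7.24% (6.26 to 8.36%) in windows of 50 to 99 and 7.17% (6.19 to 8.31%) in windows of 100 or more. The other autosomes averaged 6.04%, 7.65% and 8.54%. The intervals of chromosome 13 are too wide to tell whether it lacks their rise in the last class. Chromosome 13 lay within their range in the first class (3.99 to 8.12%) and in the second (6.31 to 9.39%). In windows of 100 or more it was below each of them, where the lowest was 7.48%, a value inside its interval.

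On chromosome 13, 1675 regions, or 30.2% (95% Wilson interval 29.0 to 31.4%), had another region within 1 kb, edge to edge. That was the lowest share of the 20, and the other autosomes averaged 32.1 ± 1.37% (SD, 19 autosomes). Of these, 6 lay inside the interval, so the last place is not settled here either. Nearness is mutual, so the regions are not independent and the interval is likely too narrow. Of all gaps, 10.6% were shorter than 500 bp, also the lowest share, against 11.7 ± 0.620% elsewhere, and 5 other autosomes lay inside its interval of 9.82 to 11.4%. The median gap was 5886 bp (interquartile range 1944 to 13786 bp), and the other autosomes averaged 5599 ± 370 bp.

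Regions less than 500 bp apart formed 512 runs with 1100 members, 19.8% of the chromosome against 21.9 ± 1.08% elsewhere (SD, 19 autosomes). Of these runs 446 were pairs, 57 held 3 regions, 8 held 4 and 1 held 5. The run of 5 was chr13:80736814-80739096, 2283 bp long with 70.4% of its bases inside regions. The longest run of 4, chr13:35551245-35555018, spanned 3774 bp and included a region of 1634 bp. Another, chr13:106063628-106067349, contained the fifth widest region of the chromosome, of 2036 bp. The next runs of 4 in length were chr13:49150452-49152641, with 47.4% of its 2190 bp inside regions, and chr13:52563659-52565668, with 72.9% of 2010 bp. All 5 of these runs lay beyond the first 25 Mb, as did 5451 of the 5547 regions.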

How the data were processed

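Kidney chromatin was assayed in 6 libraries by ATAC-seq, 3 per group by the treatment label. The submitters' processing notes name cutadapt, FastQC and Trim Galore, and rn6 as the build. Which aligner and caller were used, with which thresholds and merging rule, and whether read ends were corrected for the transposase offset, is not given in the sources at hand. The authors deposited 1 merged list of positions (chromosome, start, end, name), with no other measurement. Starts were read as 0-based and are given 1-based.

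Spans, widths, gaps and 1-Mb windows were computed with Python 3.11.15, numpy 2.4.6, pandas 2.3.3 and scipy 1.17.1, and plotted with matplotlib 3.10.9. Windows were counted from position 1, and only windows lying wholly within a span were used. Chromosome 13 was set beside the mean, SD, range and order of the other 19 autosomes, with no test, because no library has values of its own in the list. Shares have 95% Wilson intervals, which cover counting error only and treat regions or windows as independent. Statistics were tested on simulated lists. Named items followed a rule. They were the 10 widest regions, the first and last region, the 5 fullest windows, the 5 longest stretches and the longest runs of windows. The rule also named the 5 runs of close regions with the most members, the longer first where numbers were equal. Other items, the bound of 10 regions, the 25 Mb limit and the chromosomes of similar span were chosen after values were seen. The chromosome and the gene list were chosen with earlier results of these data known. The groups were to be tested only if counts per library were present, so that test was not run. Gene order came from the GRCr8 table, and 1 gene of the planned list is not reported here. Gene positions and sequences were not used, since the reference tables are of another build.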

Additional observations from a re-analysis of the deposited data

How the results depend on the processing

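Over 11 quantities and 75 alternative values, 43 moved by less than the spread between autosomes, the Wilson interval or, for counts, 1.5 times, and 32 moved by more. Part of the moves follow from the setting itself, as for counts in windows of another length or shares at another neighbour distance. The tally is therefore no measure of how stable the results are.
With regions of at least 300 bp (3968 on chromosome 13) the median width was 493 bp, the share of 1 kb or more 9.60%, the variance to mean ratio 29.9, the span in stretches over 1 Mb 21.5% and the share with a neighbour within 1 kb 20.8%.
With regions under 500 bp apart joined (4959) these were 434 bp, 13.3%, 34.1, 15.1% and 12.9%, and the rank of the neighbour share went from last to 11 of 20 from the highest. Without regions of 200 bp the median width was 412 bp.
In 500-kb windows the median count was 17, the share of windows with at most 10 regions 42.2% (second of 20), the longest sparse run 46 windows and the variance ratio 23.8. In 2-Mb windows these were 97, 21.4%, 9 and 67.7, and adjacent windows correlated at 0.64 (rank 2 of 20).
At a bound of 5 regions the sparse share was 23.2% and the run 6 windows, rank 3 of 20. Stretches over 500 kb numbered 22 and took 21.9% of the span. The neighbour share was 19.8% within 500 bp and 44.2% within 2 kb.
Without the first 25 Mb of every autosome, the density ratio was 1.04, the median window 59, the sparse share 14.8%, the longest run 5 windows, the variance ratio 29.2, and 3 stretches over 1 Mb took 4.80% of the span.
That limit and the bounds of 5 and 20 regions were chosen after seeing the data. The share of 1 kb or more was the lowest of 20 in the list as deposited and under the 3 width and joining settings, and ranked 4 of 20 from the lowest without the first 25 Mb. Leaving out replicates could not be run. No paired analysis was possible because regions carry no measurement for any single library. Regions missing from the list may be closed or below the caller's threshold, since depth is unknown.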
